A study of Arabidopsis thaliana with 8 samples.

Results

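Many Arabidopsis genes give rise to several mature transcripts, called transcript models in an annotation, which differ in the introns removed or in the splice sites used. The set described here holds 83 genes in which the balance between such models differed between lsm8-1 and Col-0 seedlings on control plates and differed little on salt plates. Members were chosen from the read counts of the salt experiment, which were deposited per transcript model. A gene was evaluated when it had 2 or more models and 50 or more summed reads in each of the 4 libraries, which left 3416 of 25944 genes with reads. The model with the most reads over the 4 libraries was taken as the main model, and its share is its percentage of the reads of all models of the gene. A member differs between lsm8-1 and Col-0 by 20 percentage points or more on GM, either way, and by less than 10 points with NaCl. The 83 members are 2.43% of the genes evaluated, of which 240, 7.03%, differed by 20 points or more on GM and 122, 3.57%, with NaCl. The main model had a lower share in lsm8-1 on GM in 53 of them and a higher one in 30.

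The libraries compare lsm8-1, a mutant of LSM8 in the Col-0 background, with wild-type Col-0. Plants were 2 weeks old, grown in long days under 90 µmol m-2 s-1 of light, and labelled as leaf tissue. The salt experiment holds lsm8-1 and Col-0 on plates of 0.5X GM medium, and lsm8-1 and Col-0 moved from that medium to plates with 150 mM NaCl for 10 h. The cold experiment, deposited per gene, holds lsm8-1 and Col-0 in soil at 20 °C, and lsm8-1 and Col-0 in soil after 24 h at 4 °C under 40 µmol m-2 s-1. Each of the 8 groups has 1 library, the labels do not say how many plants were pooled, and they do not say what lesion the allele carries. Differences in share between the salt libraries therefore have no replicate spread and no test, and since they chose the members they are given as a description. Intervals on them cover counting error only.

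LSM8 is the subunit that sets the nuclear LSM2-8 ring apart from the cytoplasmic LSM1-7 ring. The nuclear ring binds the 3′ end of U6 small nuclear RNA, which pairs with the 5′ splice site and forms part of the catalytic centre of the spliceosome, whereas the cytoplasmic ring acts in mRNA decapping and decay. In plants, retention of an intron is the most common form of alternative splicing, and a retained intron often brings a stop codon into the reading frame.

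LSM8 itself had 51 reads in lsm8-1 and 269 in Col-0 on GM, 29 and 208 with NaCl, 206 and 578 at 20 °C, and 821 and 1816 at 4 °C, so every pair followed its label. Library totals on plates were 33.4 to 34.0 M reads (M, 1e6 reads). The 8 root markers, led by BGLU23, summed to 4528 counts per 1e6 reads (CPM) in lsm8-1 and 7608 in Col-0 on GM, and to 2164 in lsm8-1 and 2997 in Col-0 with NaCl, against 38.9 to 109 CPM in the 4 soil libraries. Most of this sum is BGLU23, at 4189 CPM in lsm8-1 and 7216 in Col-0 on GM, and at 1960 in lsm8-1 and 2856 in Col-0 with NaCl. Of the other 7 root markers, 3 were higher and 4 lower in lsm8-1 on GM, with sums of 339 CPM in lsm8-1 and 392 in Col-0, while with NaCl 7 of 7 were higher, with sums of 204 CPM in lsm8-1 and 141 in Col-0. The plate libraries thus held root RNA, the markers differed in direction between genotypes, and the part of root RNA in the shares below was not tested. The 4 leaf markers summed to 23914 to 34178 CPM on plates.

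The structures of the models were read from the same-named models of the TAIR10.1 annotation, comparing the main model with the second most counted one. Only the span that both models cover was compared, so differences at their ends are left out. Models of 36 members differed by retained introns alone, 15 by an alternative 3′ splice site, 8 by an alternative 5′ splice site, 21 by several differences, 2 in the first or last intron, and 1 by another internal difference. Over the 3416 evaluated genes the counts were 1161, 718, 440, 742, 200 and 112 in this order, with 43 not annotated. The mix of kinds was not tested. Of the 6 members with the largest difference on GM whose models differ by a single intron or splice site in that span, 5 are shown first. The exon-intron borders printed are those at which the annotated models differ there. In these 5 genes the deposited model lengths do not differ by the annotated amount, so the counted models may also differ elsewhere. Over all 83 members, the deposited lengths differ by the annotated amount in 15. The words retaining and spliced below therefore name annotated models, and the sequences counted under those names may not be the same. In each 5′ splice site the 6 first bases of the intron are in capitals, and in each 3′ splice site the last 2 bases of the intron. All are read 5′ to 3′ on the gene's strand in TAIR10.1.
AT1G77290 5′ splice site, chr1:29038541-29038553, plus strand: tggGTATGTcttg
AT1G77290 3′ splice site, chr1:29038857-29038879, plus strand: ctgtttgaataatttggtAGgag
AT1G24148 5′ splice site, chr1:8544627-8544639, plus strand: tcgGTGAGTtttt
AT1G24148 3′ splice site, chr1:8545000-8545022, plus strand: taagtgtgaaagtaatgcAGaag
AT5G43560 5′ splice site, chr5:17500551-17500563, plus strand: cagGTTTGCttcg
AT5G43560 3′ splice site, chr5:17501019-17501041, plus strand: tatgatgaaatcttaatcAGggg
AT4G22350 5′ splice site, chr4:11806827-11806839, minus strand: tagGTTTCAacaa
AT4G22350 3′ splice site, chr4:11806747-11806769, minus strand: gcaaactcgttgtaatgtAGttg
AT2G15580 5′ splice site of both models, chr2:6798139-6798151, plus strand: aagGTTCGAttta
AT2G15580 3′ splice site of model 2, chr2:6798502-6798524, plus strand: atttgcattcaatttttaAGttc
AT2G15580 3′ splice site of model 1, chr2:6798507-6798529, plus strand: cattcaatttttaagttcAGgca
The intron of AT4G22350 is short enough to show whole. It lies between coding exons, has 87 bases and runs from chr4:11806750 to chr4:11806836 on the minus strand.
AT4G22350 intron: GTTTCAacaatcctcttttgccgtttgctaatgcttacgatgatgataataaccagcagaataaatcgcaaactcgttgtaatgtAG

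In every one of the 36 members whose models differ by retained introns, the model that keeps the intron had a higher share in lsm8-1 than in Col-0 on GM, against 74% of all 1161 evaluated genes whose models differ in this way. Its median share over the 36 members was 57.9% in lsm8-1 and 28.1% in Col-0 on GM, and 44.6% in lsm8-1 and 40.6% in Col-0 with NaCl. The difference on GM ran from 8.12 to 43.9 points with a median of 23.8, and reached 20 points in 32 of the 36. The retaining model was the main one in 16 members, whose main model was higher in lsm8-1, and the second one in 20, whose main model was lower. These values belong to the contrast that chose the members. Among the 1161 genes, the retaining model was higher in lsm8-1 on GM in 859 and lower in 275, with a median difference of 3.08 points. It was higher by 20 points or more in 133, 11.5%, and lower by as much in 2. By the authors' deposited coverage of model length, averaged over the 4 libraries, the retaining model was the more widely covered one in 20 of the 36 members and the spliced model in 16. Over all 1161 genes the retaining model was the more widely covered one in 524 and the spliced model in 637.

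**Figure D1:**
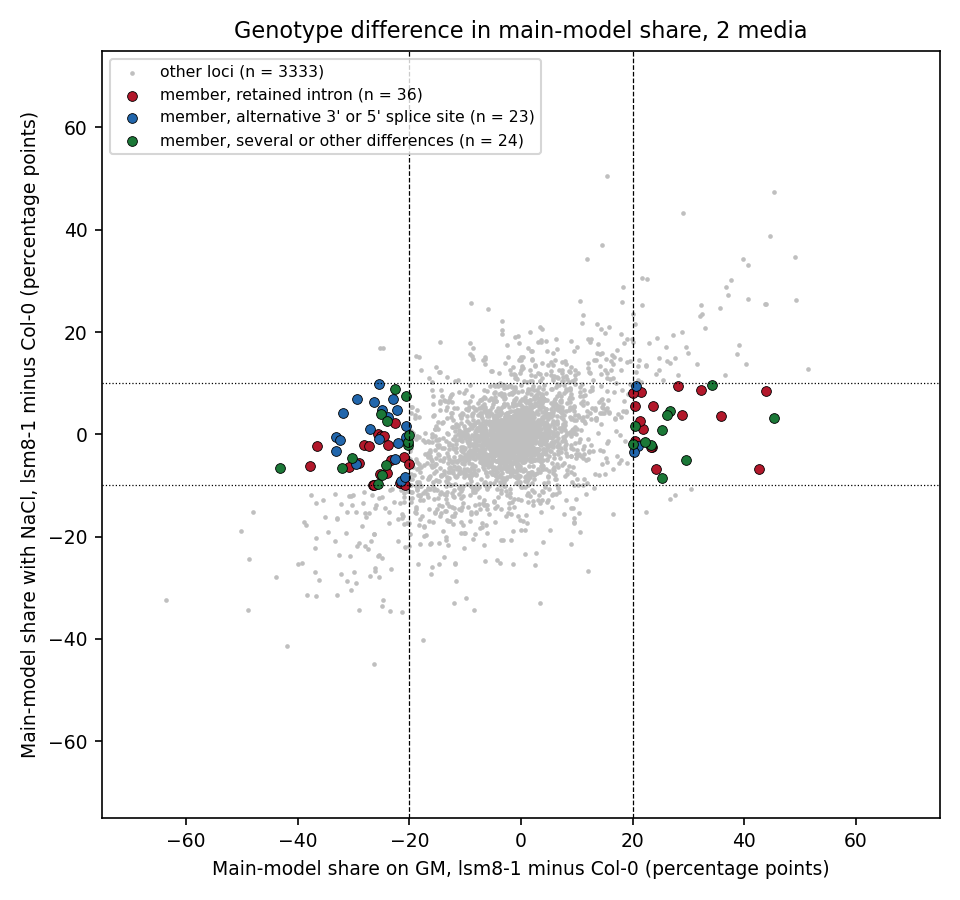
Difference in the share of the main model, lsm8-1 minus Col-0, in percentage points, on GM (horizontal axis) and with NaCl (vertical axis) for the 3416 evaluated genes. Dashed lines mark 20 points on GM, dotted lines 10 points with NaCl, and coloured points are the 83 members by how their models differ; the 36 retention members lie on both sides, since either model can be the main one.

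AT5G15190, which encodes an uncharacterised protein, had the widest shift of these. Its retaining model took 96.9% of the reads in lsm8-1 on GM (62 of 64 reads, Wilson 95% interval 89.3 to 99.1%) and 52.9% in Col-0 (27 of 51, 39.5 to 65.9%). With NaCl it took 83.8% in lsm8-1 (176 of 210) and 75.3% in Col-0 (262 of 348). The genotypes were far apart on GM and 8.52 points apart with NaCl, where both lay between the GM values. Its intron of 83 bases is in a UTR, so both models share the same annotated coding sequence.

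AT1G77290, a member of the glutathione S-transferase family, has an annotated UTR intron of 333 bases. The model that keeps it was assigned 92.6% of the reads in lsm8-1 (75 of 81, 84.8 to 96.6%) and 50% in Col-0 on GM (31 of 62, 37.9 to 62.1%). With NaCl the retaining model had 65.1% in lsm8-1 and 72.0% in Col-0. The order of the genotypes was thus turned round with NaCl, but the Newcombe 95% interval of that difference, -18.4 to 5.12 points, includes 0.

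AT4G22350 encodes a ubiquitin hydrolase family protein related to splicing factors of the tri-snRNP in yeast and animals. The model keeping the printed 87-base intron had 97.1% of the reads in lsm8-1 (68 of 70, 90.2 to 99.2%) and 61.3% in Col-0 on GM (38 of 62, 48.8 to 72.4%), and 90.3% in lsm8-1 and 86.8% in Col-0 with NaCl. Here Col-0 with NaCl came near to lsm8-1. The length of this intron is a multiple of 3, and the retaining model has an annotated coding sequence of 1620 bases against 1533 in the spliced model.

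In AT1G24148, an uncharacterised protein, the retaining model is the second one. The spliced model had 43.7% in lsm8-1 (59 of 135, 35.6 to 52.1%) and 81.5% in Col-0 on GM (97 of 119, 73.6 to 87.5%), and 75.6% in lsm8-1 and 81.8% in Col-0 with NaCl. Only the lsm8-1 library on GM stood apart from the other 3. Keeping this 390-base intron shortens the annotated coding sequence to 282 bases, against 348 in the spliced model.

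AT5G43560, a TRAF-like protein, showed another arrangement. Its spliced model had 40.5% in lsm8-1 (32 of 79, 30.4 to 51.5%) and 77.0% in Col-0 on GM (67 of 87, 67.1 to 84.6%), and 43.6% in lsm8-1 and 45.8% in Col-0 with NaCl. The library that stood apart was Col-0 on GM, while the other 3 were close to each other. The intron, of 485 bases, is in a UTR.

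**Figure D2:**
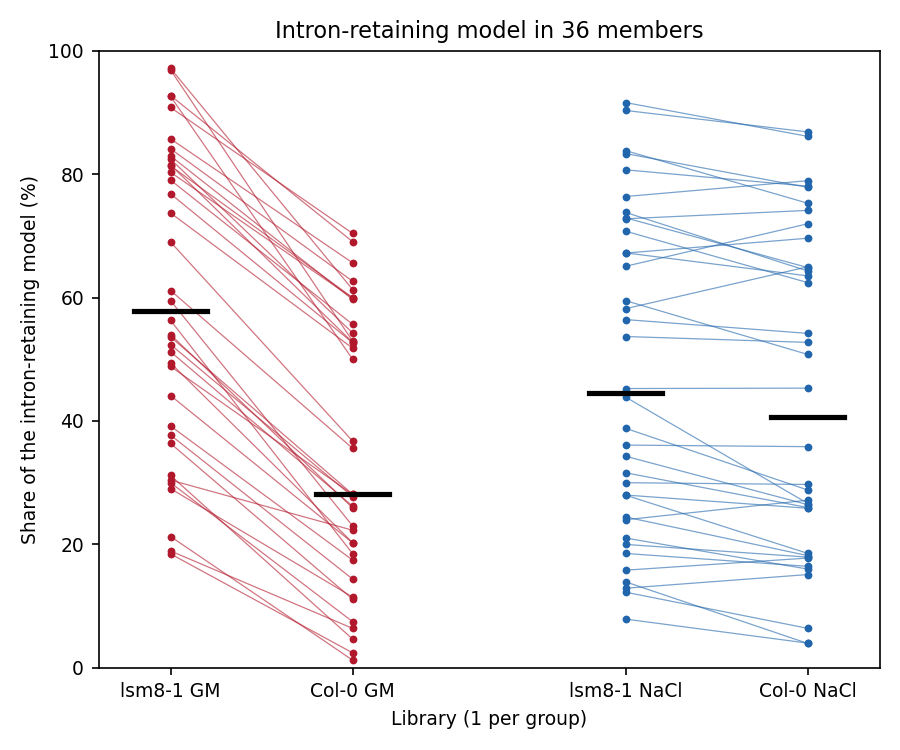
Share of the intron-retaining model in percent of the reads of its gene (vertical axis) in each of the 4 salt-experiment libraries, for the 36 members whose models differ by retained introns; thin lines join the genotypes of a gene and black bars are medians (57.9%, 28.1%, 44.6% and 40.6% from left to right). All 36 lines slope down towards Col-0 on GM, while with NaCl 27 do and 9 slope up.

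Further retention members follow the same direction on GM. AT1G65270, an ER membrane protein complex subunit, had its retaining model at 82.4% in lsm8-1 and 54.3% in Col-0 on GM (535 and 387 reads), and at 73.8% in lsm8-1 and 64.3% in Col-0 with NaCl. GPDHC1, a cytosolic glycerol-3-phosphate dehydrogenase, had it at 92.7% in lsm8-1 and 69.1% in Col-0 on GM (234 and 307 reads), and at 91.6% in lsm8-1 and 86.1% in Col-0 with NaCl. In both genes the intron lies in a UTR. AT3G26085, a CAAX protease family protein, had 69.0% in lsm8-1 and 36.7% in Col-0 on GM, and 59.5% in lsm8-1 and 50.8% in Col-0 with NaCl. AT3G44670, an immune receptor of the TIR-NBS-LRR class, had 81.5% in lsm8-1 and 52.7% in Col-0 on GM, and 67.2% in lsm8-1 and 63.5% in Col-0 with NaCl. For LPPepsilon1, a plastid phosphatidic acid phosphatase, the shares were 76.8% in lsm8-1 and 52.7% in Col-0 on GM, and 58.2% in lsm8-1 and 65% in Col-0 with NaCl. In LPPepsilon1 the annotated intron has 129 bases, but the deposited lengths are 919 bases for the retaining model and 925 for the spliced one. Whether its counted models differ by this intron is thus uncertain. These 5 genes have the retaining model as their main model, and in 4 of them lsm8-1 was also the higher genotype with NaCl, by less than 10 points.

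Among the named members in which the spliced model is the main one, that model was the lower one in lsm8-1. AT4G39270, a leucine-rich repeat receptor kinase, had its spliced model at 46.0% in lsm8-1 and 74.1% in Col-0 on GM, and at 72.0% in lsm8-1 and 74.1% in Col-0 with NaCl. AT4G30993, a metallophosphoesterase, had it at 50.6% in lsm8-1 and 79.7% in Col-0 on GM, and at 68.4% in lsm8-1 and 74.0% in Col-0 with NaCl. AT5G58720, an Smr-domain protein with 3 models, had it at 64.5% in lsm8-1 and 91.8% in Col-0 on GM, and at 75.5% in lsm8-1 and 77.9% in Col-0 with NaCl. AT3G45050, an uncharacterised protein with 4 models, had it at 40.3% in lsm8-1 and 71.1% in Col-0 on GM, and at 53.3% in lsm8-1 and 59.8% in Col-0 with NaCl. AT3G45050 also holds the smallest shift of the 36 when its retaining model is taken, 8.12 points, since a further annotated model also took up reads in lsm8-1.

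The 36 members hold 42 retained introns of 74 to 502 bases, of which 27 lie between coding exons and 15 in a UTR. In 22 members the annotated retaining model keeps an intron between coding exons, and in 18 of these that model has the shorter annotated coding sequence. ABCC3, a vacuolar ABC transporter, is a strong case, with 3 introns kept and a coding sequence of 3363 bases against 4545. The opposite holds for VCS, a scaffold of the mRNA decapping complex, whose 105-base intron adds to the coding sequence, 4035 bases against 3930. GT and AG end 40 of the 42 introns, 95.2%, near the 98.6% of all 27775 introns of evaluated genes. A G stands at position 5 of 54.8% of these introns, counted from the first base of the intron, against 44.2% of the 1240 introns retained in all evaluated genes and 50.7% of all their introns. Median lengths were 122.5, 113 and 104 bases in these 3 sets. These are descriptions of the annotated introns, and no feature was tested.

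In absolute terms both models moved on GM. The retaining model was at a higher CPM in lsm8-1 in all 36 members, with a median log2 ratio of 1.06 over Col-0, and the spliced model was at a lower CPM in 33, with a median of -0.79. These GM values use the reads that chose the members, so they describe the selection and are no independent evidence. With NaCl the medians were 0.11 for the retaining and -0.14 for the spliced model. In AT4G22350 the spliced model had 2 reads in lsm8-1 and 24 in Col-0 on GM, against 68 and 38 for the retaining model. Reads of a mature transcript that keeps an intron and of an unspliced precursor cannot be told apart in these counts.

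**Figure D3:**
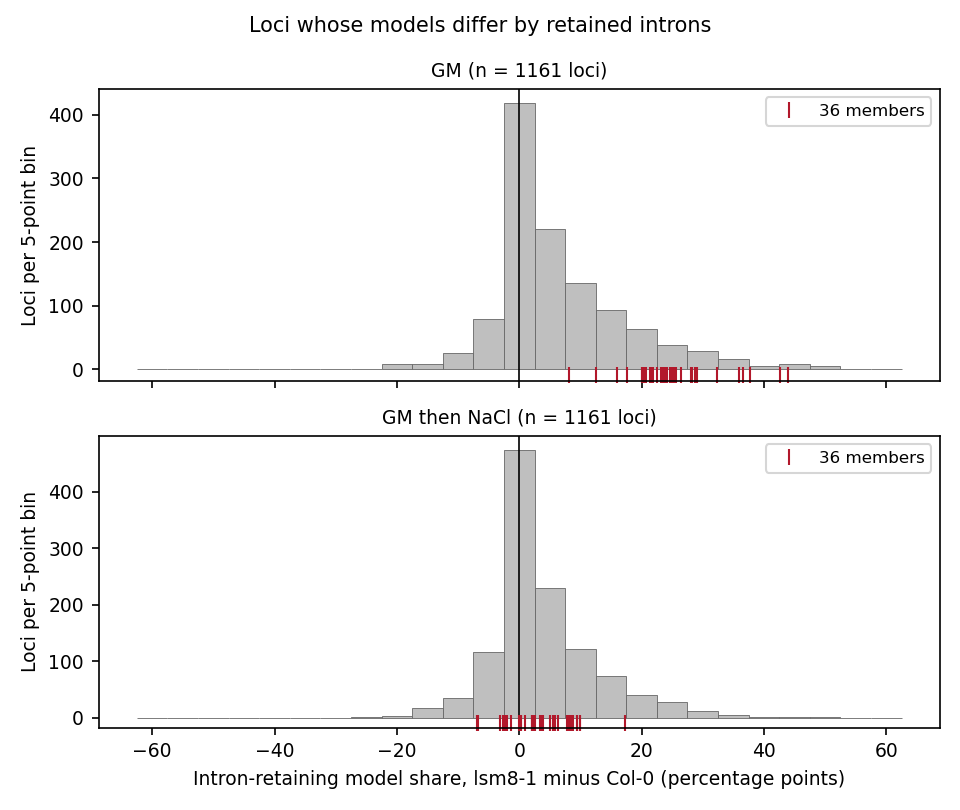
Number of genes (vertical axis, bins of 5 points) by the difference in share of the intron-retaining model, lsm8-1 minus Col-0, for all 1161 evaluated genes whose models differ by retained introns, on GM (top) and with NaCl (bottom); red ticks are the 36 members. The ticks lie between 8.12 and 43.9 points on GM and between -6.88 and 17.2 points with NaCl.

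With NaCl the retaining model stayed higher in lsm8-1 in 27 of the 36 members and was lower in 9, with a median difference of 3.60 points, where the rule had limited the main model to under 10 points. In all 1161 genes it was higher with NaCl in 780, 67.2%, with a median of 1.62 points. Against GM, the share with NaCl was lower in lsm8-1 in 36 of 36 members (median -11.5 points) and higher in Col-0 in 29 and lower in 7 (median 7.55 points), so the genotypes came together from both sides. Both changes share their GM library with the difference that chose the members, so they are no independent evidence. Over all 1161 genes the changes with NaCl were smaller, with medians of -1.18 points in lsm8-1 and 0 in Col-0. Of the 67 genes shifted by 20 points or more the same way in both media, 47 differ by retained introns, and the retaining model was higher in lsm8-1 in 46 of them.

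Splice-site members showed no common direction. Of the 15 with an alternative 3′ splice site, the model with the longer exon was higher in lsm8-1 on GM in 8 and lower in 7. Over all 718 such genes it was higher in 48.7%, with a median difference of 0 points. Of the 8 with an alternative 5′ splice site it was higher in 3 and lower in 5, against 53.4% higher in all 440 such genes.

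AT2G15580, a RING-type ubiquitin ligase family gene, has 3′ splice sites 5 bases apart, printed above, and each model ends its intron in AG. Model 2, which uses the upstream AG, had 34.7% in lsm8-1 (41 of 118 reads, 26.8 to 43.7%) and 67.9% in Col-0 on GM (188 of 277, 62.2 to 73.1%), and 50.7% in lsm8-1 and 51.2% in Col-0 with NaCl. Both NaCl libraries lay midway between the GM libraries. Its annotated coding sequence is 393 bases in model 2 and 591 in model 1. The gene itself was also lower in lsm8-1 on GM, at 3.73 CPM against 8.03 in Col-0.

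PDIL5-1, a protein disulphide isomerase of the secretory pathway, uses 3′ splice sites 40 bases apart in a UTR. Its main model had 33.9% in lsm8-1 and 66.9% in Col-0 on GM (192 and 118 reads), and 56.9% in lsm8-1 and 60.2% in Col-0 with NaCl. 3BETAHSD/D2, a sterol dehydrogenase, has sites 8 bases apart, and its main model had 45.2% in lsm8-1 and 77.1% in Col-0 on GM, and 80.0% in lsm8-1 and 75.9% in Col-0 with NaCl. AT3G24180, a beta-glucosidase family gene with sites 5 bases apart, had 34.1% in lsm8-1 and 63.5% in Col-0 on GM, and 57.8% in lsm8-1 and 50.9% in Col-0 with NaCl. In these 3 genes the lsm8-1 library on GM was the one far from the others.

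Among 5′ splice-site members, SNL1, a SIN3-like corepressor, has sites 36 bases apart, and its main model had 37.5% in lsm8-1 and 69.9% in Col-0 on GM, and 58.0% in lsm8-1 and 59.1% in Col-0 with NaCl. SAE2, the large subunit of the SUMO-activating enzyme, has sites 9 bases apart. Its main model had 40.5% in lsm8-1 and 70.0% in Col-0 on GM, and 47.7% in lsm8-1 and 53.5% in Col-0 with NaCl. In SAE2 the NaCl libraries were nearer to lsm8-1 than to Col-0 on GM, and in SNL1 nearer to Col-0.

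**Figure D4:**
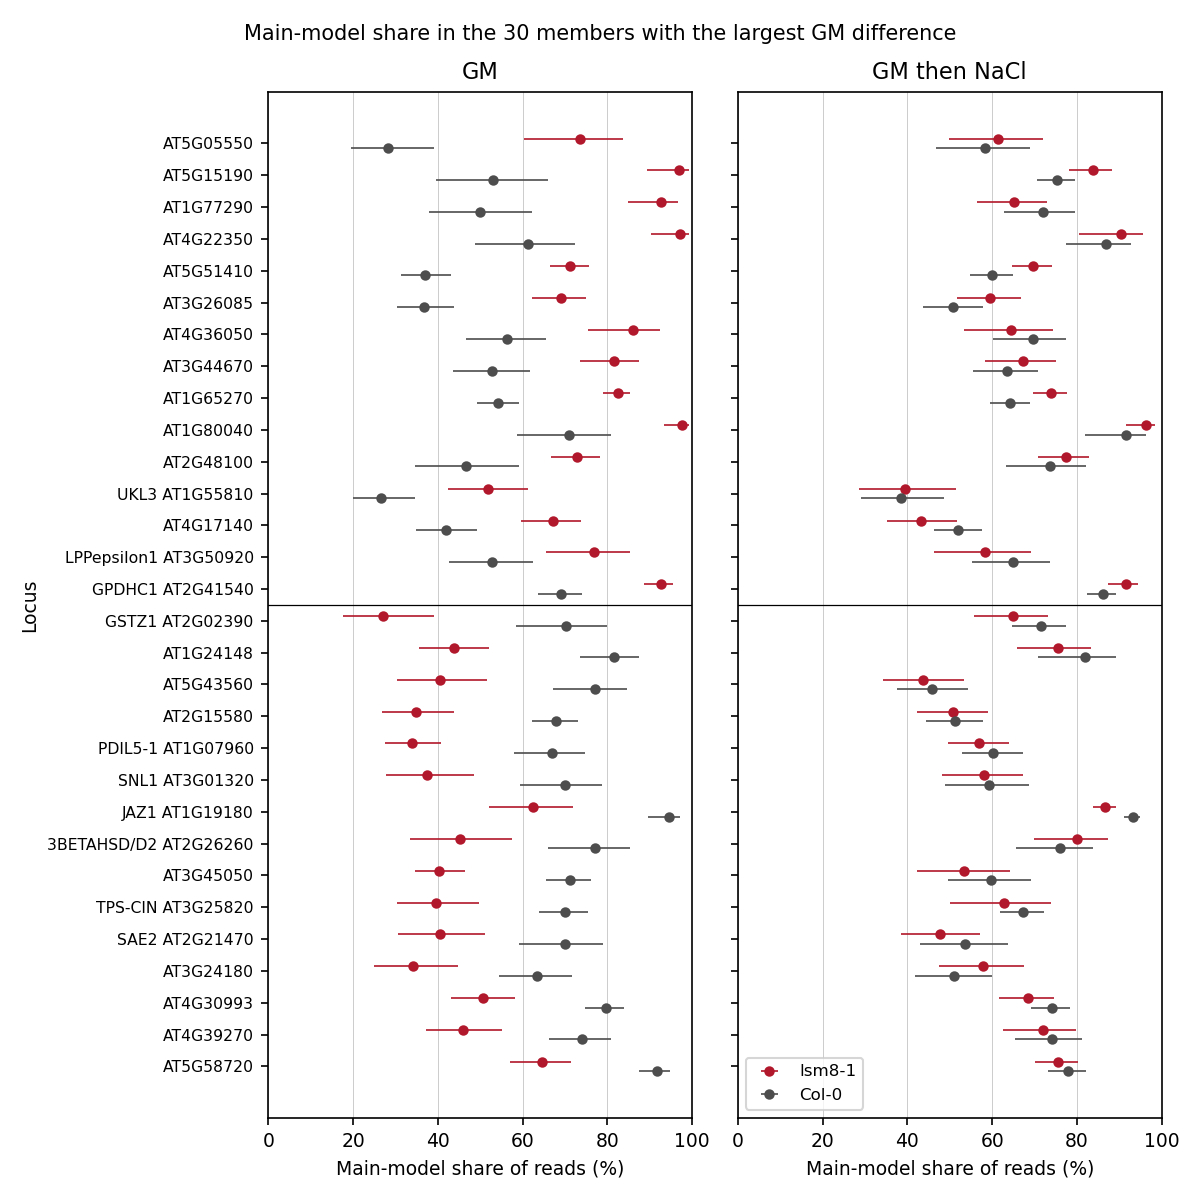
Share of the main model in percent of the reads of its gene (horizontal axis) in lsm8-1 (red) and Col-0 (grey), on GM (left) and with NaCl (right), for the 15 members with the largest positive and the 15 with the largest negative difference on GM; bars are Wilson 95% intervals of counting error. The rule of selection sets the GM points 20 points or more apart and the NaCl points less than 10 apart. With NaCl the intervals of both genotypes overlap in most genes, which the rule favours, so the overlap is no separate result.

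The widest difference of all 83 was in AT5G05550, a DNA-binding transcription factor whose models have several differences. Its main model had 73.6% in lsm8-1 (39 of 53 reads, 60.4 to 83.6%) and 28.2% in Col-0 on GM (22 of 78, 19.4 to 39.0%), and 61.4% in lsm8-1 and 58.3% in Col-0 with NaCl. GSTZ1, a zeta-class glutathione transferase of tyrosine breakdown, had its main model at 27.0% in lsm8-1 and 70.1% in Col-0 on GM, and 64.9% in lsm8-1 and 71.5% in Col-0 with NaCl. In GSTZ1 the second model keeps an intron and had 73.0% in lsm8-1 and 29.9% in Col-0 on GM. In 13 of the 21 members with several differences, just 1 of the models keeps introns, and that model was higher in lsm8-1 on GM in 13 of 13, against 62.9% of the 251 evaluated genes of this kind. With the 36 above, this makes 49 of 83 members with an intron-retaining model, higher in lsm8-1 in all 49. The contrast is again the one that chose the members, so nothing is read from these counts.

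JAZ1, a repressor of jasmonate responses, is among those 13. Its intron-retaining model had 37.5% in lsm8-1 and 5.48% in Col-0 on GM, and 13.3% in lsm8-1 and 6.73% in Col-0 with NaCl. JAZ1 had 88 reads in lsm8-1 and 146 in Col-0 on GM, and 592 in lsm8-1 and 728 in Col-0 with NaCl. AT4G36050, an endonuclease/exonuclease/phosphatase family gene, had its retaining model at 85.9% in lsm8-1 and 56.3% in Col-0 on GM, and at 64.5% in lsm8-1 and 69.5% in Col-0 with NaCl. UKL3, a uridine kinase-like gene, had it at 51.9% in lsm8-1 and 26.7% in Col-0 on GM, and at 39.4% in lsm8-1 and 38.5% in Col-0 with NaCl. AT1G80040, a ubiquitin system component, had it at 97.6% in lsm8-1 and 71.0% in Col-0 on GM, and at 96.2% in lsm8-1 and 91.7% in Col-0 with NaCl. AT2G48100, an exonuclease family gene, had it at 72.9% in lsm8-1 and 46.7% in Col-0 on GM, and at 77.5% in lsm8-1 and 73.8% in Col-0 with NaCl. In the last pair of genes the Col-0 library on GM was the low one.

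Without such an intron, AT4G17140, a VPS13-like protein with a pleckstrin homology domain, had its main model at 67.1% in lsm8-1 and 41.9% in Col-0 on GM, and at 43.3% in lsm8-1 and 51.9% in Col-0 with NaCl. TPS-CIN, a terpene synthase that makes cineole in roots, had 39.6% in lsm8-1 and 69.9% in Col-0 on GM, and 62.7% in lsm8-1 and 67.3% in Col-0 with NaCl. TPS-CIN has a near-identical neighbour, so how reads were shared out between the copies is uncertain.

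By function, 11 members act in RNA processing or decay, a grouping made after their values were seen. The share of such genes among all evaluated genes is not given, so nothing is read from this count. AT5G51410, a LUC7-like protein of the U1 small nuclear ribonucleoprotein, had its main model at 71.2% in lsm8-1 and 37.0% in Col-0 on GM (368 and 246 reads), and at 69.6% in lsm8-1 and 60.0% in Col-0 with NaCl. In AT1G14650, related to a subunit of the U2 particle, the retaining model had 84.1% in lsm8-1 and 62.6% in Col-0 on GM, and 70.8% in lsm8-1 and 62.4% in Col-0 with NaCl. The annotated intron of AT1G14650 has 116 bases, but the deposited lengths are 2789 bases for the retaining model and 3168 for the spliced one. VCS had its retaining model at 73.7% in lsm8-1 and 51.8% in Col-0 on GM (289 and 334 reads), and at 53.7% in lsm8-1 and 52.7% in Col-0 with NaCl. For the nuclear poly(A) polymerase nPAP, with 9 models, the shares were 80.3% in lsm8-1 and 59.9% in Col-0 on GM, and 72.8% in lsm8-1 and 74.1% in Col-0 with NaCl. The main model of UPF3, a nonsense-mediated decay factor whose models differ by 6 bases at a 5′ splice site, had 64.7% in lsm8-1 and 88.6% in Col-0 on GM, and 73.0% in lsm8-1 and 69.7% in Col-0 with NaCl. AHG2, a poly(A)-specific ribonuclease, had its intron-retaining model at 25% in lsm8-1 and 2.33% in Col-0 on GM, and at 12.5% in lsm8-1 and 21.3% in Col-0 with NaCl. The library that stood apart was lsm8-1 on GM for VCS and Col-0 on GM for UPF3.

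Another 10 members act in transcription and 8 are protein kinases, grouped in the same way and again without the share among all evaluated genes. RVE4, listed as LCL1, a clock-related MYB factor, had its main model at 47.2% in lsm8-1 and 69.2% in Col-0 on GM, and at 54.9% in lsm8-1 and 56.7% in Col-0 with NaCl. The proton pump gene HA3 had its main model, which differs by 6 bases at a 3′ splice site, at 71.1% in lsm8-1 and 50.8% in Col-0 on GM (211 and 193 reads), and at 60.0% in lsm8-1 and 63.4% in Col-0 with NaCl. None of the 3 LSM family genes (of 11 listed) and none of the 13 SR splicing factor genes (of 19 listed) that met the read minimum is a member, and none differed by 20 points on GM. Their median absolute difference on GM was 0.435 and 6.45 points, against 3.47 over all evaluated genes.

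Where NaCl placed the members was mixed. The mean share of both genotypes with NaCl lay nearer to Col-0 on GM in 51 members and nearer to lsm8-1 on GM in 32. The difference with NaCl kept the direction seen on GM in 55 and had the opposite one in 28. Its interval included 0 in 68 members and reached 20 points in the direction seen on GM in 5. The rule held the NaCl difference under 10 points, which favours such intervals. All these counts use the values that chose the members, so they are a description and no independent evidence.

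At the threshold of 20 points, AT5G57860 (main model 70.8% in lsm8-1 and 90.8% in Col-0 on GM) and NF-YC3 (78.7% in lsm8-1 and 98.8% in Col-0) lay just inside, and IAA8 (58.4% in lsm8-1 and 38.4% in Col-0) and AT5G24320 (58.1% in lsm8-1 and 78.0% in Col-0) just outside. At 10 points with NaCl, CAK1AT (61.2% in lsm8-1 and 71.2% in Col-0) and CCMH (86.1% in lsm8-1 and 96.1% in Col-0) lay just inside, and AtATG18a (79.9% in lsm8-1 and 90.0% in Col-0) and AT3G48820 (86.1% in lsm8-1 and 96.2% in Col-0) just outside. Genes on both sides of each limit are alike in these values.

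The members were lightly counted. The fewest reads of a member in a library ran from 51 to 431 with a median of 88, against a median of 163 over all evaluated genes, and 41 members had 100 reads or more in each library. How reads that fit several models were assigned is not given in the sources used here. In Col-0, the ratio of CPM on GM to CPM in soil at 20 °C had a median of 1.92 over 8828 genes with 1 model and 0.237 over 68 members. The ratio over all evaluated genes, which also have several models, is not given, so the low value is not shown to be particular to the members. In HA3, whose models differ by 6 bases, the authors' deposited coverage in the 4 libraries was 74.2 to 86.5% of the length of model 2 and 10.5 to 12.8% of that of model 1. In VCS it was 62.7 to 88.8% for the spliced model and 11.5 to 17.4% for the retaining one. Models that share most of their sequence were thus covered unequally, and a share holds reads as the authors assigned them, which need not equal the share of transcripts. For 25 of the 83 members another gene lies across them on the other strand, against 1004 of the 3416 evaluated genes. The labels do not say whether the libraries keep strand, so reads of such pairs cannot be told apart.

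Summed over models, the level of most members differed by less than 2-fold between genotypes on plates. Of 34 members at 5 CPM or more in either library on GM, 4 differed 2-fold or more, a larger share than the 4.26% of all genes. Of 39 with NaCl 4 did, again a larger share than the 5.45% of all genes. These counts are small, and the excess was not tested. ABCC3 was at 21.3 CPM in lsm8-1 and 4.55 in Col-0 on GM, and at 37.6 in lsm8-1 and 14.7 in Col-0 with NaCl. AT2G48100 was at 7.12 CPM in lsm8-1 and 1.74 in Col-0 on GM, and at 5.51 in lsm8-1 and 2.22 in Col-0 with NaCl. TPS-CIN was the opposite, at 3.04 CPM in lsm8-1 and 7.13 in Col-0 on GM, and at 1.79 in lsm8-1 and 8.59 in Col-0 with NaCl. Whether a shift in model use changes such a summed count was not tested.

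The cold experiment is independent of the choice of members and gives the level of each gene, not its model use. A genotype effect was fitted together with temperature to its 4 libraries with edgeR's quasi-likelihood test. It rested on 1 residual degree of freedom shared across 17589 genes. With Benjamini-Hochberg adjustment at 0.05 it called 1504 genes, 8.55%, of which 703 were higher and 801 lower in lsm8-1. With library totals in place of TMM scaling the split was 815 higher and 299 lower, with the median of all genes 0.11 higher on the log2 scale. Of the 81 members tested, 4 passed, 2 higher and 2 lower, and 19, 23.5%, had an unadjusted p under 0.05, against 4043, 23%, of all genes.

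ABCC3 was the member with the largest change, at 148 CPM in lsm8-1 and 30.9 in Col-0 at 20 °C, and at 319 in lsm8-1 and 46.4 in Col-0 at 4 °C. It rose in lsm8-1 by 2.52 on the log2 scale (SE 0.163, adjusted p 1.54e-09 in edgeR's quasi-likelihood test) and was higher in both pairs. On plates its gene level differed the same way, as given above, while its intron-retaining model 4 had 196 of 675 reads in lsm8-1 and 18 of 157 in Col-0 on GM.

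AT4G30993 fell in lsm8-1 by 0.72 on the log2 scale (adjusted p 0.00545, edgeR), with 31.6 CPM in lsm8-1 and 59.5 in Col-0 at 20 °C and 14.5 in lsm8-1 and 20.6 in Col-0 at 4 °C. AT1G21060, of a family of unknown function, fell by 0.65 (adjusted p 0.0158, edgeR), with 24.6 CPM in lsm8-1 and 32.2 in Col-0 at 20 °C and 10.9 in lsm8-1 and 20.8 in Col-0 at 4 °C. AT3G53930, a kinase of the autophagy ATG1 type, rose by 0.61 (adjusted p 0.0344, edgeR), with 9.81 CPM in lsm8-1 and 6.95 in Col-0 at 20 °C and 10.1 in lsm8-1 and 6.14 in Col-0 at 4 °C. DESeq2 on the same libraries lost AT1G21060 (adjusted p 0.0593, with 0.00135 to 0.155 over the alternatives) and AT3G53930 (adjusted p 0.236, with 0.0112 to 0.311). AT4G30993 was lost when the NaCl pair was added to the fit (adjusted p 0.122, with 0.00021 to 0.122), and ABCC3 passed in every alternative run (adjusted p up to 0.0469).

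**Figure D5:**
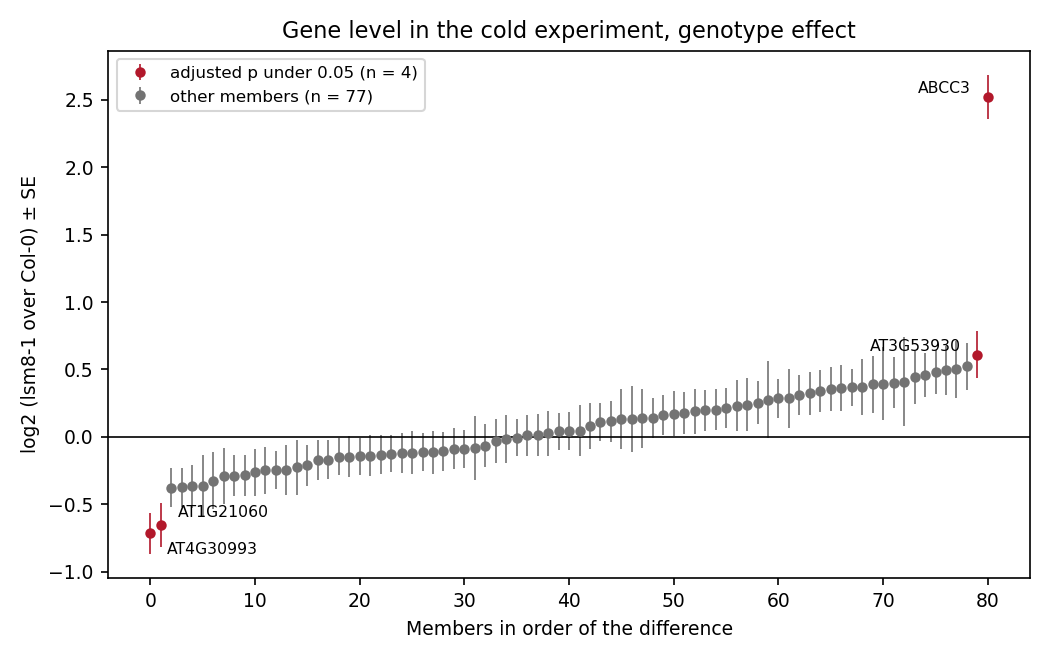
Genotype effect on the level of 81 members in the cold experiment, as log2 of lsm8-1 over Col-0 with its standard error (vertical axis), in rising order (horizontal axis); red points have an adjusted p under 0.05 in edgeR's fit across all genes. ABCC3 at 2.52 stands alone, and the others lie between -0.72 and 0.61.

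More members passed for temperature than for genotype, and so did more of all genes. Of the 81 tested, 44 passed for 4 °C against 20 °C, 22 higher and 22 lower. This is near the share of all genes that passed, 56.6%. TPS-CIN is not listed in the cold tables, and AT5G03440, a zinc finger gene, was too low to test, with 48 reads in lsm8-1 and 41 in Col-0 at 20 °C and 17 and 28 at 4 °C.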

How the data were processed

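The members and lists were chosen with earlier results of these data known. The authors deposited, for each library, the raw count of uniquely placed reads per feature, its RPKM and the coverage of its length, per the file headers; counts gave the shares and levels, since RPKM equalled count over length and total, and coverage (signal) served to describe how widely models were covered. The genome build was TAIR10, per the submitters' processing notes; which aligner and counter were used is not given in the sources used here. Features not listed were taken as 0.

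Shares have Wilson and their differences Newcombe 95% intervals (reads lack molecular identifiers, so these cover counting error only). Model structure came from the same-named models of TAIR10.1. The plan had been to describe structure only where model lengths equal the annotation, which holds for 7 members; all were described instead, with the 15 whose length difference equals the annotated one as a check chosen after seeing the data. The splice-site sequences of 1 gene are not reported here. Named genes are the 15 largest differences each way on GM, cold genotype calls and genes at the thresholds; others were named after their values were seen.

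Cold counts were TMM-scaled, filtered at 1 CPM in 2 libraries and fitted with edgeR 4.0.16 (R 4.3.3; DESeq2 1.42.0 as an alternative). The fit was tested on simulated data. P-values measure the spread left over by the additive model, which holds any difference in response as well as noise. Totals were 44.2 to 45.9 M reads (M, 1e6) in the cold experiment.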

Additional observations from a re-analysis of the deposited data

How the results depend on the processing

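The number of members depended on the limits of the rule: it was 83 as reported, 155 with 20 reads, 41 with 100 reads, 196 with 15 points on GM, 39 with 25 points, and 45 with less than 5 points with NaCl. Shares per model length gave 83 genes, 74 of them the same. The retaining model was higher in lsm8-1 on GM in 100% of retention members. It was so too in those with 100 reads or more and in those whose model lengths differ by the annotated intron. Both checks were chosen after seeing the data. Each takes a part of the same 36 members, so its outcome was fixed in advance and it adds no evidence. In the cold experiment the genotype calls were 1504 genes and 4 members, but 680 and 2 with the DESeq2 Wald test, 221 and 2 when all 8 libraries were fitted, and 29 and 1 with 6 libraries (the GM pair left out). Other scalings and no filter gave 1114 to 2139 genes and 4 to 6 members. Temperature calls stayed within 1.5 times under the 4 alternatives run for them (2 scalings, no filter and DESeq2). With a limit of 1.5-fold, 13 of the members at 5 CPM or more differed in summed level on GM and 9 with NaCl. The share of all genes past this limit is not given, so nothing is read from these counts. No paired analysis was possible because each group has 1 library. Leaving out a cold library left no residual degrees of freedom, so that alternative could not be fitted. Depth limits every share: members had as few as 51 reads in a library.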
